A study of Daphnia magna with 30 samples.

Results

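The transcripts of 6 probes with the name of a splicing factor were followed across photoperiods in single *Daphnia magna*, of 14338 *D. magna* probes on the array. They were the probes that the list of differentially expressed transcripts of the study named as serine/arginine-rich splicing factors (DM01218P1 and DM03475P3), a splicing factor (DM11603P2), splicing factor 1 (DM13248P3), a pre-mRNA-processing factor (DM02299P2) and, by an earlier name, subunit 3 of splicing factor 3b (DM02269P1). That list was made from differences between photoperiods and the 16L:8D control, and these 6 entered it from the same 30 animals described here, so the differences between photoperiods below describe how the 6 were chosen, and no test of them is offered. Counts past the thresholds of the study are given in the same way, as a description. The newer name of DM02269P1 in the list is DNA damage-binding protein 1, which is no splicing factor, so it is called DM02269P1 here. Most names were marked as putative, and DM01218P1 and DM03475P3 had the same best protein match, so they may read the same gene or close copies of it.

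The animals were the 21 d old females of experimental trial 2, sampled whole, from cultures started with 1 individual and kept at 16L:8D, and so of a single genotype. They had been exposed since they were neonates to 4, 8, 12, 16 or 20 h of light per day. These photoperiods are written as hours of light and dark: 4L:20D and 8L:16D are short days, 12L:12D is the equinox, 16L:8D is the control and 20L:4D is the longest day. Values for several photoperiods are listed by their hours of light. Each photoperiod had 3 exposure chambers, numbered 1 to 3, and 2 animals per chamber, labelled A and B, so n = 6 animals in each photoperiod. All chambers of a photoperiod stood in 1 lit box, so box and photoperiod cannot be told apart. The animals were taken within 1 h of lights on with the contents of the brood pouch, and in such whole animals fewer cells of a type and less RNA per cell cannot be told apart. The yolk protein vitellogenin fused with superoxide dismutase (DM00375P2), expressed by females, was well above background on 30 of 30 arrays.

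Splicing removes introns from pre-mRNA, and the spliceosome that does so is built from small nuclear ribonucleoproteins (snRNPs), each an RNA with its proteins, and many further proteins. In humans, serine/arginine-rich proteins bind exon sequences and help to recruit the snRNPs, and splicing factor 1 binds the branch point of the intron before the U2 snRNP takes its place. The splicing factor 3b complex, of which subunit 3 is a part, belongs to the U2 snRNP. DNA damage-binding protein 1, in humans, is an adaptor of ubiquitin ligases and is related in sequence to that subunit. The names of DM11603P2 and DM02299P2 do not say which splicing protein is meant, so no role is given to them.

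The 5 probes shown are 50 bases long, and their sequences are given because they are the stretches to which the RNA hybridized. Capitals mark CGNTCN or CGNAGC, which would be codons for arginine followed by serine in frame, the pair that serine/arginine-rich proteins repeat. The sequences were taken from the supplementary table of the study and are written as listed there. None is shown for DM01218P1.
DM03475P3: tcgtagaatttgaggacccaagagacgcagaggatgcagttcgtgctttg
DM11603P2: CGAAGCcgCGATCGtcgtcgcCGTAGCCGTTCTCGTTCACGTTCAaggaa
DM13248P3: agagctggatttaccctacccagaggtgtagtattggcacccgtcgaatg
DM02299P2: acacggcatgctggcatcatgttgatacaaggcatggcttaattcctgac
DM02269P1: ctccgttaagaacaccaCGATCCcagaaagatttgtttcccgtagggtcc

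The probe named only as a splicing factor, DM11603P2, held 6 matches, of which 5 began in 1 reading frame and 1 in another, and its sequence was 60% G and C. On the strand as listed, 15.8% of the 850 probes of 50 bases in that table held at least 1 match, and 27.8% did on either strand. DM11603P2 was the only 1 of the 850 with 5 or more matches on the listed strand. The 2 motifs can overlap each other, and a match is a description of the letters. The serine/arginine-rich probe DM03475P3 had no match within its 50 bases.

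Levels are given as log2 of the background-subtracted signal relative to the 75th percentile of the array, so 0 is the brightness of the probe at that percentile. Levels of different probes are not compared, since probes differ in how brightly they report. A probe is called well above background by the extraction software. Between 10568 and 12895 probes, or 73.7% to 90.0%, were well above background on an array. Precision is limited by how many arrays there were. The probes DM01218P1, DM03475P3 and DM11603P2 were well above background on all 30 arrays, DM13248P3 on 28, DM02269P1 on 23 and DM02299P2 on 18. In what follows the first 3 are called bright and the other 3 dim.

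With 4 h of light (4L:20D), all 6 transcripts were lower than in the 16L:8D control, with a median log2 fold change of -0.78. For 5 of them the values ran from -0.91 to -0.60. DM02299P2 was not well above background on any array of 4L:20D. The median of the other 5 was -0.69. With the signals of DM02299P2 there raised to the floor described below where they lay under it, it was still the lowest of the 6. The median of the 6 therefore stayed at -0.78 and says nothing about its level. All 6 were also lower in 8L:16D, with a median of -0.49, and in 12L:12D, with a median of -0.57. In 20L:4D, 5 of the 6 were lower, with a median of -0.25. Over all 14338 probes the medians were -0.06, -0.03, -0.06 and -0.02, and 56.7%, 55.0%, 57.0% and 53.0% of probes were lower, with 4, 8, 12 and 20 h of light.

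The serine/arginine-rich transcript DM01218P1 ranged from 2.12 to 2.60 in the 16L:8D animals, with a median of 2.33. With 4 h of light it ranged from 1.38 to 1.75 (median 1.45), with 8 h from 1.51 to 1.93 (median 1.71) and with 12 h from 1.36 to 1.99 (median 1.70). Every animal of these 3 photoperiods lay below every control animal. In 20L:4D it ranged from 1.53 to 2.54, with a median of 2.04, and 4 of the 6 animals lay below the lowest control animal. Against the control, the log2 fold changes of DM01218P1 were -0.86, -0.63, -0.64 and -0.32 with 4, 8, 12 and 20 h of light, each ± 0.15 (standard error, n = 6 animals per photoperiod). The 2 spots of this probe differed by 0.06 on the log2 scale on average over the 30 arrays.

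DM03475P3, the other serine/arginine-rich transcript, had the same order of photoperiods by their means, though not by their medians. Its level ranged from 1.64 to 2.16 in the controls (median 1.87), from 0.87 to 1.5 with 4 h of light (median 1.26), from 1.24 to 1.57 with 8 h (median 1.29) and from 1.02 to 1.57 with 12 h (median 1.35). Here too the animals of these 3 photoperiods did not overlap with the controls, although the highest animals of 8L:16D and of 12L:12D came within 0.1 of the lowest control animal. In 20L:4D the level ranged from 1.21 to 2.25 (median 1.65), with 3 animals below all controls and 1 above all controls. The log2 fold changes of DM03475P3 were -0.66, -0.54, -0.58 and -0.21 in the same order of photoperiods, each with a standard error of 0.16.

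DM11603P2, the probe with the 6 motif matches, ranged from 1.94 to 2.44 in the controls (median 2.16). In 4L:20D it ranged from 0.99 to 1.57 (median 1.23) and in 8L:16D from 1.24 to 1.86 (median 1.51), in both without overlap with the controls. In 12L:12D it ranged from 1.36 to 2.13 (median 1.52). The 2 animals of chamber 1 in 12L:12D, at 2.04 and 2.13, lay among the controls, and the other 4 lay below them. In 20L:4D it ranged from 1.12 to 2.49 (median 1.80), with 4 animals below and 1 animal above all controls. The log2 fold changes were -0.91, -0.67, -0.51 and -0.28 with 4, 8, 12 and 20 h of light, each with a standard error of 0.20.

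**Figure D1:**
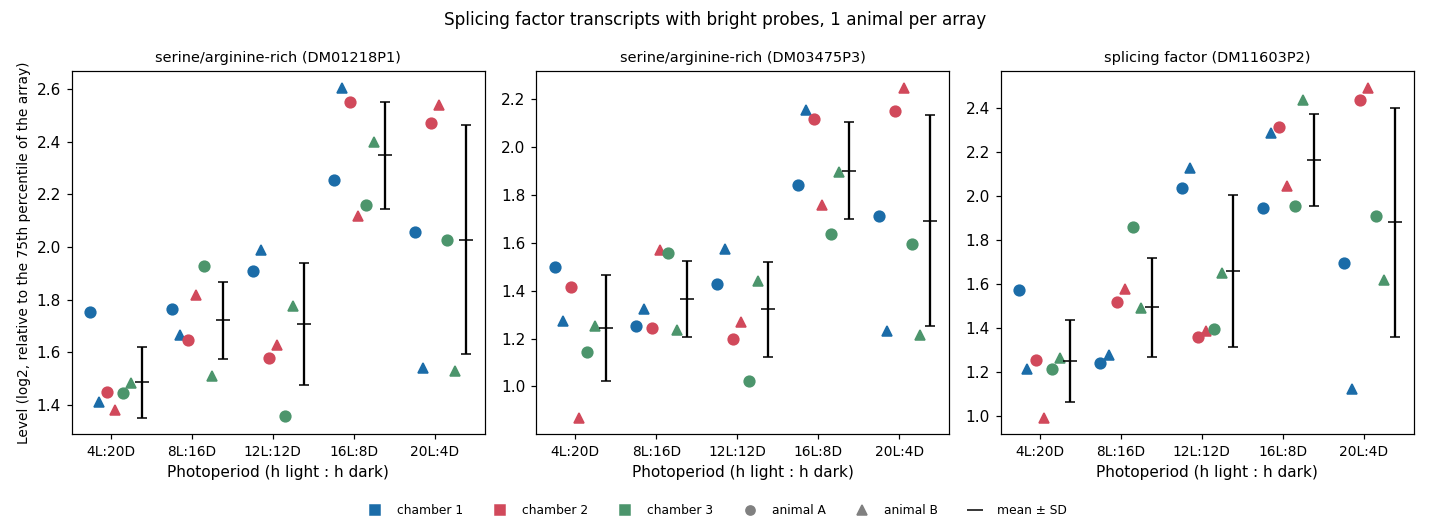
Level of the 3 bright transcripts (vertical axis, log2 relative to the 75th percentile of the array) in each animal by photoperiod (horizontal axis). Colours are chambers, circles animal A, triangles animal B, and bars the mean ± SD of 6 animals. Animals of 4L:20D lie below all 16L:8D animals in each panel, and the 2 animals of chamber 2 in 20L:4D are the highest of their photoperiod.

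Splicing factor 1, DM13248P3, was dimmer, between -4.51 and -4.11 in the controls (median -4.25). Its animals of 4L:20D, between -5.55 and -4.57 (median -4.90), all lay below the controls. With 8 h of light it ranged from -5.22 to -4.28 (median -4.68), with 12 h from -5.17 to -4.40 (median -4.58) and with 20 h from -5.02 to -3.96 (median -4.55). Each of these 3 photoperiods overlapped with the controls, and in 20L:4D 2 animals lay above every control animal. The log2 fold changes were -0.69, -0.44, -0.37 and -0.22, each with a standard error of 0.19.

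The pre-mRNA-processing factor transcript, DM02299P2, ranged from -5.46 to -4.78 in the controls (median -5.30), 5 of whose 6 arrays were well above background. In 4L:20D, where it ranged from -6.99 to -6.05 (median -6.34), none of the 6 arrays was well above background. With signals below a floor raised to it, the transcript was 2.02-fold lower there than in the control on the processed signal. The floor of an array was the lowest signal among its probes well above background. The mean of the control arrays, -5.21, was set against the resulting mean of -6.23. This floor is no detection limit. In animal 1A of 4L:20D the floor was -6.35, and DM02269P1 at -5.51 was not well above background. The 2.02-fold is thus not a lower limit. The fitted log2 fold change, -1.21 ± 0.34 (standard error), rests on signals not told from background in 4L:20D, and with the normexp background correction described below it was -0.24.

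In 8L:16D, DM02299P2 was well above background on all 6 arrays and ranged from -6.12 to -4.91 (median -5.51). In 12L:12D it ranged from -7.03 to -5.57 (median -6.34), below all controls in every animal, with 3 of 6 arrays well above background. The means of DM02299P2 did not follow the hours of light, with 8L:16D above both 4L:20D and 12L:12D, although the animals overlapped. In 20L:4D it ranged from -7.34 to -4.57 (median -5.84), the widest range of any of the 6 transcripts in any photoperiod. There 4 of 6 arrays were well above background, and the lowest 2 animals, 1B and 3B, were not. The log2 fold changes were -0.33, -1.05 and -0.63 with 8, 12 and 20 h of light, each with a standard error of 0.34.

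DM02269P1, named as a subunit of splicing factor 3b earlier and as DNA damage-binding protein 1 later, ranged from -5.86 to -4.46 in the controls (median -4.97). With 4 h of light it ranged from -5.96 to -5.51 (median -5.64), with 8 h from -5.45 to -5.02 (median -5.11) and with 12 h from -6.17 to -4.95 (median -5.66). All photoperiods overlapped with the controls. The 4L:20D animals lay below the 8L:16D animals by a narrow gap, -5.51 against -5.45. With normexp the log2 fold changes of these 2 photoperiods were both -0.15. How many of all probes separate them in this way was not counted, so nothing is read from the gap. In 20L:4D it ranged from -5.87 to -3.43 (median -5.18). The log2 fold changes were -0.60, -0.09, -0.56 and 0.15, each with a standard error of 0.31, and the 2 spots of the probe differed by 0.33 on the log2 scale on average and by up to 1.27. It was well above background on 3 of 6 arrays with 4 h of light, on 4 of 6 with 12 and with 20 h, and on all 6 with 8 h and in the control.

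**Figure D2:**
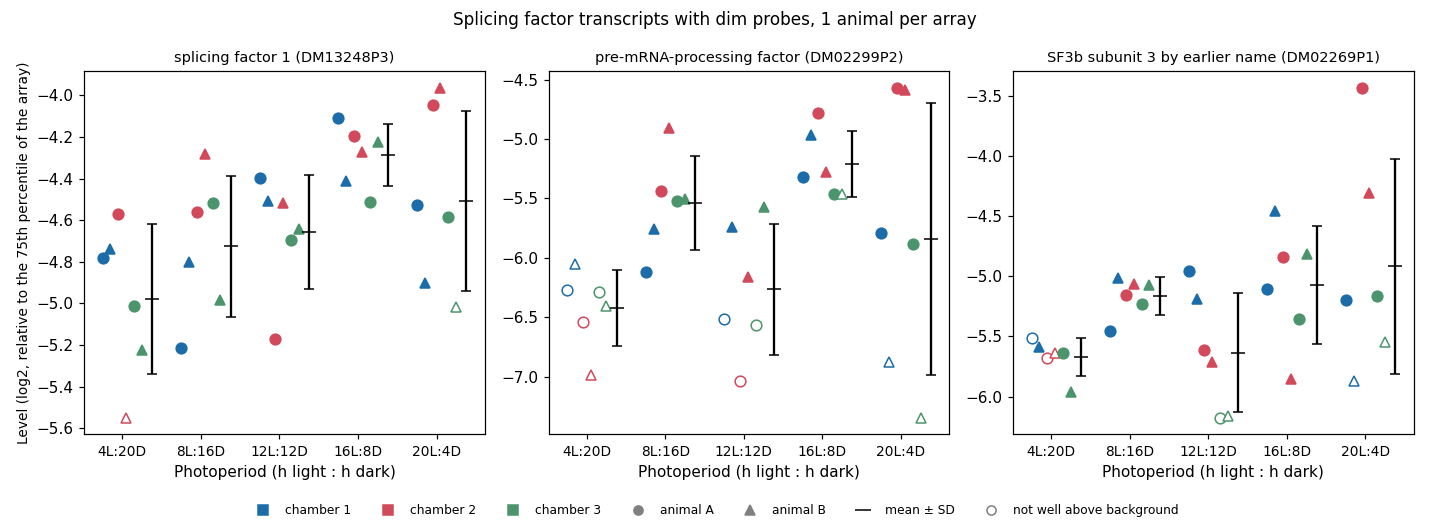
Level of the 3 dim transcripts (vertical axis, log2 relative to the 75th percentile of the array) in each animal by photoperiod (horizontal axis). Colours are chambers, circles animal A, triangles animal B, open symbols arrays on which the probe was not well above background, and bars the mean ± SD of 6 animals. All 6 symbols of DM02299P2 in 4L:20D are open, and DM02299P2 and DM02269P1 spread most in 20L:4D.

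The order of the photoperiods was read from their means. The lowest mean was that of 4L:20D for all 6 transcripts, and the highest was that of 16L:8D for 5 of them and of 20L:4D for DM02269P1. The lowest place was not fixed: with quantile normalization 12L:12D was lower than 4L:20D for DM02299P2 (-1.17 against -1.07) and DM02269P1 (-0.66 against -0.51), with slide as a block it was for DM03475P3 (-0.74 against -0.71), and with normexp 8L:16D and 4L:20D were both at -0.17 for DM13248P3. For every transcript the ranges of neighbouring photoperiods in this order overlapped. The step between neighbours was within the larger of their SDs in all cases other than the step from 4L:20D to 8L:16D in DM11603P2, which was 0.24 against an SD of 0.22.

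By the thresholds of the study (in limma, p under 0.01 for photoperiod and under 0.05 for the comparison with the control, both unadjusted, and a change of 1.5-fold or more), 4 of the 6 transcripts were called lower in 4L:20D, where 3.05% of all probes were called lower. The 4 were DM01218P1, DM03475P3, DM11603P2 and DM02299P2. In 8L:16D, 2 of 6 were called (DM01218P1 and DM11603P2), beside 2.36% of all probes. With 12 h of light 2 of 6 were called (DM01218P1 and DM02299P2), beside 3.56%. None was called in 20L:4D, beside 0.46%. DM13248P3 and DM02269P1 were called in no photoperiod. As these thresholds resemble those that chose the transcripts, nothing is read from the counts. A fit with chamber as a random block, which allows for the 2 animals that share a chamber, also left out the letter of the animal. In it 3, 2, 1 and 0 of the 6 were called with 4, 8, 12 and 20 h of light, the calls of DM02299P2 being lost. Of all probes 2.77%, 2.05%, 2.93% and 0.342% were called lower. Without the letter and without that block the counts were also 3, 2, 1 and 0, with the same calls lost. There 3.08%, 2.33%, 3.40% and 0.391% of all probes were called lower.

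The fold nearest above the limit of 1.5 was 1.51, of DM02269P1 in 4L:20D, which was not called, and the nearest below was 1.49, of DM03475P3 in 12L:12D. All 6 animals lay below all 6 controls in 5, 3, 3 and 0 transcripts with 4, 8, 12 and 20 h of light, where 3.23%, 0.857%, 3.79% and 0.169% of the 14239 probes with a value on every array did so. With slide as a block, the calls went from 4, 2 and 2 to 1 each with 4, 8 and 12 h of light, and DM01218P1 was the 1 still called in each, while the medians of the 6 went to -0.82, -0.60 and -0.70 and 2.99%, 2.47% and 3.40% of all probes were called lower. None of the 6 was called in any photoperiod once the scores of the animals on the first 2 principal axes of the residuals within photoperiods were added to the fit, where their median in 4L:20D was -0.49. The axes came from the residuals, but the scores were taken from levels centred on the mean of all animals. They thus also carry differences between photoperiods, and adding them is not an adjustment for variation within photoperiods alone. In that fit 0.453%, 0.391%, 0.363% and 0.230% of all probes were called lower with 4, 8, 12 and 20 h of light. The arrays lay on 9 slides and 2 scan days. Controls shared 2 slides with 4L:20D, on which DM01218P1 was at -0.67 (animal 2A against control 2B) and -1.12 (2B against 1B and 3B) on the log2 scale. They shared 1 slide with 8L:16D, on which DM01218P1 was at -0.34, DM11603P2 at -0.38 and DM03475P3 at -0.07. On the 2 slides shared with 12L:12D all 6 transcripts were lower than the controls. On the 2 shared with 20L:4D all were lower other than DM02269P1, which was higher. On the slide shared with 8L:16D the 3 dim transcripts were higher than the control, DM13248P3 by 0.23, DM02299P2 by 0.55 and DM02269P1 by 0.29. This set 1 animal, 2B of 8L:16D, above its photoperiod mean for all 6 transcripts, against 1 control, 3A, below its own for all 6. DM02269P1 was also higher by 0.17 on 1 of the 2 slides shared with 4L:20D, for animal 2A against control 2B, its lowest control. The calls of DM02299P2 in 4L:20D and 12L:12D were both lost with scan day as a block, at -1.19 and -1.04, and each was lost when any 1 of 11 of the 15 chambers was left out.

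The differences of the bright transcripts and those of the dim ones behaved differently under another background correction. With normexp, which adds an offset of 50 to the signal and so makes differences of dim probes smaller by construction, the 3 bright transcripts had log2 fold changes of -0.83, -0.65 and -0.85 in 4L:20D. The dim ones, DM13248P3, DM02299P2 and DM02269P1, had -0.17, -0.24 and -0.15. In 12L:12D these 3 were at 0.11, 0.03 and 0.10 with normexp, which also moved the median of all probes there from -0.06 to 0.13, so all 3 stayed below that median. The direction of the 3 dim transcripts in 12L:12D thus depended on the background correction, and that of DM13248P3 and DM02299P2 in 20L:4D did as well, at 0.15 and 0.13 with normexp, beside a median of all probes of 0.11.

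**Figure D3:**
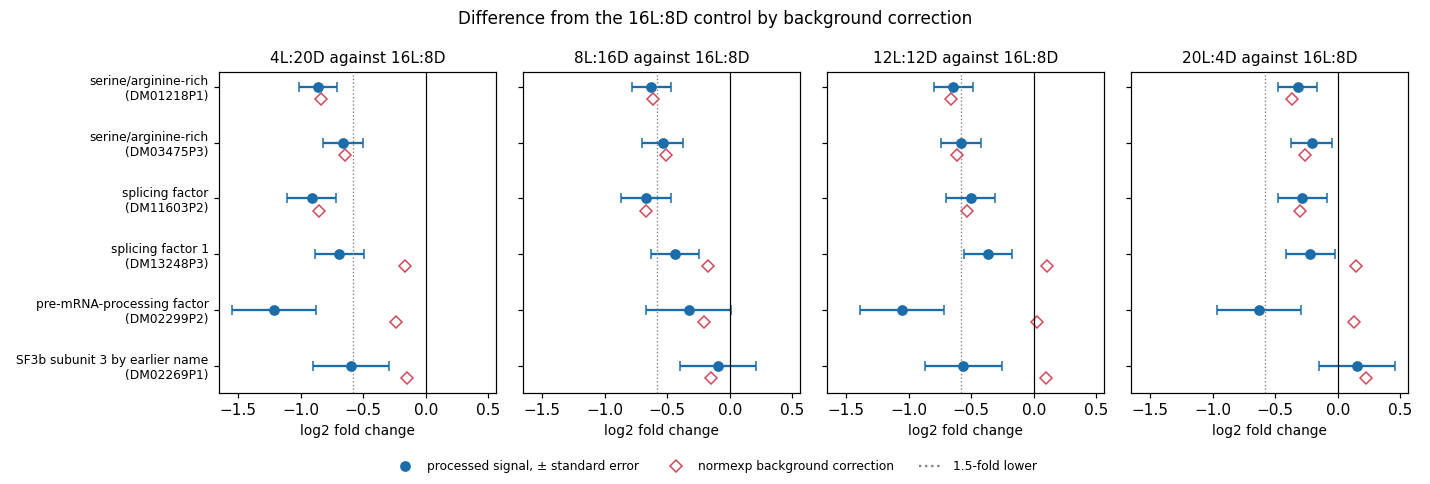
Log2 fold change against the 16L:8D control (horizontal axis) of each transcript (vertical axis) in 4 photoperiods. Filled circles come from the processed signal with their standard error, open diamonds from the normexp background correction, and the dotted line marks a change of 1.5-fold. Circles and diamonds lie close together for the upper 3, bright transcripts. They lie apart for the dim transcripts in 4L:20D and 12L:12D, and for DM13248P3 and DM02299P2 in 20L:4D.

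The spread between animals within photoperiods entered the tests that chose the transcripts, so it too is a description. All 6 transcripts had their largest SD in 20L:4D, where their SDs ran from 0.43 to 1.14, while 27.7% of the 14239 probes had theirs there. In the 16L:8D control the median SD of the 6 was 0.21, beside 0.30 over all probes, and in 20L:4D it was 0.48, beside 0.39.

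In 20L:4D the same animals were high and low for each transcript. Animals 2A and 2B, both from chamber 2, were the highest pair for 6 of 6 transcripts, and 1B and 3B were the lowest pair for 6 of 6. Among all 14239 probes, 22.4% had 2A and 2B as the highest pair, 25.2% had 1B and 3B as the lowest, and 10.65% had both. For DM01218P1 the levels in 20L:4D were 2.06 in 1A, 1.54 in 1B, 2.47 in 2A, 2.54 in 2B, 2.03 in 3A and 1.53 in 3B. Chamber 2 thus reached the level of the controls, and 1B and 3B that of 4L:20D.

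The arrays of 1B and 3B had 11074 and 10568 probes well above background, the fewest of 20L:4D, while those of 2A, 2B, 1A and 3A had 11745, 12677, 12156 and 11955. The arrays of 2A and 3B shared a slide and a scan day. The part of array quality in this order was not tested. Without chamber 2, the median log2 fold change of the 6 transcripts in 20L:4D was -0.51 in place of -0.25, all 6 were lower than in the control, and DM02299P2 was called, at -1.26. That call rests in part on 1B and 3B, in which DM02299P2 was not well above background. Without that chamber 359 of all 14338 probes were called lower in 20L:4D, in place of 66.

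**Figure D4:**
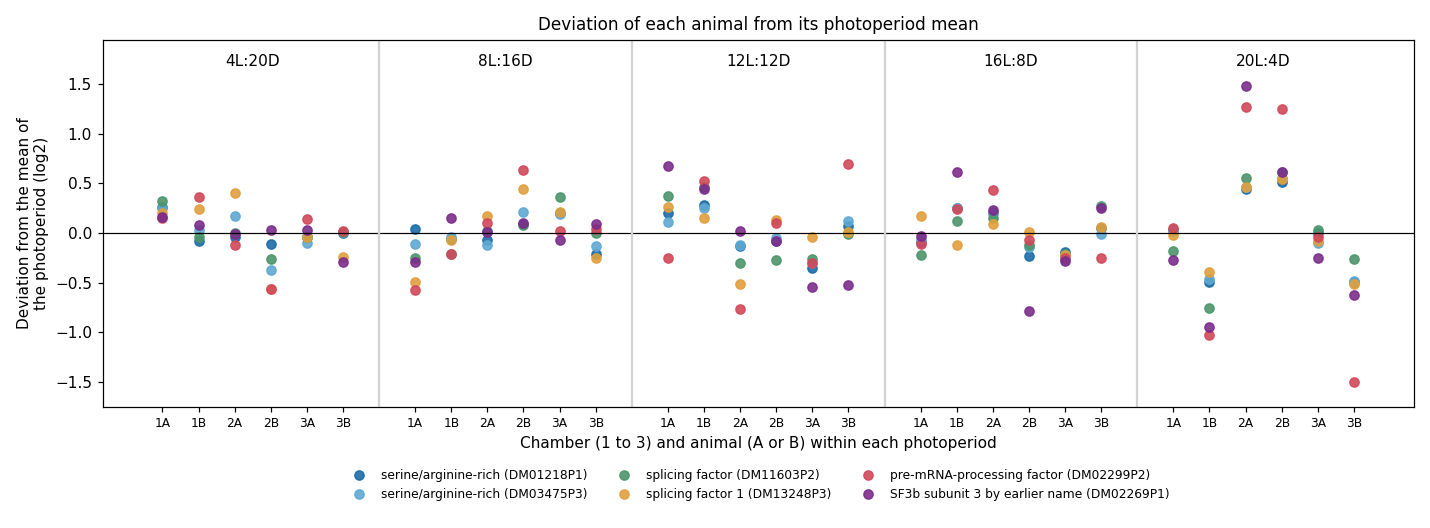
Deviation of each animal from the mean of its photoperiod (vertical axis, log2) for the 6 transcripts (colours), by chamber and animal within photoperiod (horizontal axis). The points of 2A and 2B in 20L:4D all lie above 0 and those of 1B and 3B all below, and the points of DM02299P2 and DM02269P1 lie farthest out.

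Differences between the chambers of a photoperiod, which the choice of the transcripts did not compare although it favoured a small spread over all 6 animals, were tested over all probes in limma with a mean for each of the 15 chambers. After Benjamini-Hochberg adjustment none of the 6 transcripts, and none of the 14338 probes, passed 0.05, and the adjusted p of the 6 ranged from 0.434 to 0.642. At an unadjusted p under 0.05, 3 of the 6 passed (DM11603P2, DM02299P2 and DM02269P1), as did 1365 of all probes. At an unadjusted p under 0.01, DM11603P2 and DM02269P1 passed, beside 2.04% of all probes. Without chamber 2 of 20L:4D, none of the 6 passed at 0.05.

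The 2 animals of a chamber differed by 0.24 ± 0.17 (SD, 15 pairs) in the level of DM11603P2, and animals from different chambers of a photoperiod by 0.38 ± 0.31 (60 pairs). For DM02269P1 these values were 0.37 ± 0.32 and 0.56 ± 0.55, and for DM01218P1 0.25 ± 0.18 and 0.28 ± 0.25. For all 6 transcripts, animals of different chambers lay farther apart on average than chamber mates, by less than either SD.

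Neither the letter of the animal nor its interaction with photoperiod was past the threshold for any of the 6. The study picked the animals of a chamber at random, so the letter names no condition and nothing is read from this result. The A minus B difference lay between -0.03 ± 0.21 (DM02299P2) and 0.12 ± 0.19 (DM02269P1, standard error), with adjusted p from 0.988 to 0.995 in limma. The adjusted p of the interaction ranged from 0.937 to 0.959. None of the 6 had an unadjusted p under 0.05 for the letter or for the interaction, while 454 and 765 of all probes did. At an unadjusted p under 0.01 these were 0.432% and 1.46% of all probes, and after adjustment 0 and 1 probes passed.

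The 6 transcripts varied together across the 30 arrays. The correlation between 2 of them ranged from 0.59 to 0.96 over their 15 pairs (Pearson's r, median 0.78), and from 0.53 to 0.93 (median 0.77) in the deviations from the photoperiod means. The median correlation of a member with all other probes was between 0.12 and 0.14 across arrays. These values are descriptions over the same 30 arrays, chambers and slides for each transcript. Without the 6 animals of 20L:4D, the correlations within photoperiods ranged from 0.13 to 0.86 over 24 arrays, with a median of 0.56. The highest, of DM01218P1 and DM03475P3 over all 30 arrays, joined the 2 probes that may read the same gene.

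The 3 probes most like each member over the 30 arrays were taken from the whole array. Those of DM01218P1 were DM03475P3 (r = 0.96), DM11603P2 (0.93) and DM02498P2 (0.92), which has no known function by name. Those of DM03475P3 were DM01218P1, DM04943P3 (0.92) and DM01099P3 (0.92), named as subunit 3 of the THO complex, which in humans couples transcription to mRNA export. DM11603P2 was most like DM02257P3 (0.94), named as a DNA excision repair protein, and DM10885P3 and DM11352P3 (0.93 each), which have no protein match.

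Among the dim transcripts, DM13248P3 was most like DM05287P3 (0.85), DM09195P3 (0.84) and DM12107P2 (0.84), of which DM09195P3 is named as a cell growth-regulating nucleolar protein. DM02299P2 was most like DM02229P1 (0.87), DM01910P1 (0.85) and DM03962P1 (0.84), none with a name that gives a function here. DM02269P1 was most like DM00241P1 (0.85), DM03954P4 (0.83) and DM12745P2 (0.82), the last with the same nucleolar protein name as DM09195P3.

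Other transcripts of pre-mRNA processing in the same list of the study, which was chosen in part on these animals, are given for comparison as counts. Of 11 probes for snRNP-bound proteins, 10 were well above background on at least 1 array, and all 10 were lower with 4, 8, 12 and 20 h of light, with medians of -0.76, -0.62, -0.51 and -0.39 on the log2 scale. By the same thresholds 5, 3, 2 and 0 of the 10 were called lower and none higher. Over all probes 3.05%, 2.36%, 3.56% and 0.46% were called lower, and 56.7%, 55.0%, 57.0% and 53.0% were lower. Sm D3 (DM01117P1), a protein of the ring that holds the snRNA, had the lowest value in 4L:20D, -1.44 ± 0.36 (standard error). The probe left out of these counts, for a protein of the U5 snRNP (DM00117P3), had the highest fitted value in 4L:20D but was well above background on 0 of 30 arrays, so no fold change is given for it.

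Of 11 probes for other pre-mRNA processing proteins, such as RNA helicases and proteins of the hnRNP, THO and exon junction complexes, all 11 were lower in each of the 4 photoperiods, with medians of -0.59, -0.56, -0.61 and -0.27. In the same order of photoperiods, 4, 1, 5 and 0 were called lower and none higher, beside the same shares of all probes. The lowest in 4L:20D was a polyadenylate-binding protein (DM00340P3), which binds the tail of mRNA, at -0.98 ± 0.23, and the highest was the RNA helicase DDX42 (DM11599P1), at -0.47 ± 0.16 (standard error). All 11 of this group and 9 of the 11 snRNP-bound probes were well above background on all 30 arrays, unlike DM13248P3, DM02299P2 and DM02269P1.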

How the data were processed

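The deposited scanner output gives each spot's Cy3 fluorescence intensity, extracted by the authors in Agilent software (Feature Extraction 9.5.1 in their methods, 10.7.3.1 in the file headers). Its processed signal is linear and has the local background subtracted, and the spots carry deposited flag scores for background, saturation and outliers. A second deposited table holds log2 values, made by the authors relative to each array's 75th percentile and each probe's median, and it correlated at 0.9999 or more with the values used here. Of 15744 spots per array, 536 control spots and 188 outlier spots over all arrays were left out. The log2 signals of the spots of a probe were averaged (2 spots for DM01218P1 and DM02269P1, 1 for the others), a probe with 1 spot well above background counting as such, and the 75th percentile of the array was subtracted, with no filter on dim probes. No spot was saturated.

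The fit across all 14338 probes was made in R 4.3.3 by limma 3.58.1, whose terms were photoperiod, letter of the animal and the interaction of both (20 residual degrees of freedom), and 15 chamber means for chambers, with Benjamini-Hochberg adjustment over all probes. Python 3.11.15 with pandas 2.3.3, numpy 2.4.6 and matplotlib 3.10.9 was used for descriptions and figures, and statmod 1.5.0 for the random block. The fit was tested on simulated data. Alternatives were normexp, quantile normalization, the deposited table, a filter on dim probes, blocks for slide, chamber and replicate number, no letter, principal axes as covariates, leaving out each chamber and, chosen after seeing the data, scan day as a block.

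The 6 transcripts, the comparison lists and the rule for names (the 6, the 3 probes most correlated with each, and the lowest and highest of each list in 4L:20D) were chosen with earlier results of these data known. Experimental trial 1 was not analysed here, and the list of the study held none of the 6 for that trial.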

Additional observations from a re-analysis of the deposited data

Results flagged for a closer look

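In 4L:20D, animal 1A had a DM01218P1 level of 1.75 (log2 relative to the 75th percentile of the array), while the other 5 animals lay between 1.38 and 1.48. The gap to the nearest was 0.72 of the whole range, above the critical value of 0.625 of Dixon's test for 6 samples. It was the only flag in 30 groups of 6 animals (6 transcripts in 5 photoperiods), and chance flags about 1 in 20 groups. Without its chamber the log2 fold change of DM01218P1 in 4L:20D was -0.91 in place of -0.86.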

How the results depend on the processing

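Fold changes rest on 6 animals per photoperiod from 3 chambers in 1 box, and those of DM13248P3, DM02299P2 and DM02269P1 on signals close to background. With normexp the median log2 fold change of the 6 transcripts was -0.44 with 4 h of light and -0.25 with 12 h, where DM02299P2 turned to 0.026, and 361, 313, 515 and 49 of all probes were called with 4, 8, 12 and 20 h of light, against 657, 595, 902 and 117. With each animal's scores on the first 2 principal axes of the within-photoperiod residuals added to the fit, the medians were -0.49, -0.26 and -0.19 with 4, 8 and 12 h, none of the 6 was called, and 132, 79, 89 and 61 of all probes were. As said above, those scores also carry differences between photoperiods. With slide as a block 304 probes were called in 20L:4D. The causes of these changes, the part of the normexp offset among them, were not tested. Leaving out each chamber gave medians from -0.85 to -0.74 with 4 h of light, -0.58 to -0.40 with 8 h, -0.74 to -0.49 with 12 h and -0.51 to -0.11 with 20 h, with 2 to 5, 1 to 3, 0 to 3 and 0 to 1 of the 6 called. Calls over all probes then ranged from 398 to 822, 297 to 726, 564 to 1076 and 77 to 487, lowest without chamber 3 of 4L:20D, chamber 1 of 16L:8D, chamber 2 of 12L:12D and chamber 2 of 16L:8D, and highest in 20L:4D without its chamber 2. Without a chamber, the smallest adjusted p of the 6 ranged from 0.772 to 1.00 for the letter, 0.285 to 0.999 for the interaction and 0.326 to 0.898 for chambers. The replicate number does not pair chambers: the correlations of same-numbered chambers ranged from -0.60 to 0.60, with 12 of 30 over 0.1. The fit with the replicate block also left out the letter. Its medians were -0.78, -0.49, -0.57 and -0.25, and 632, 558, 864 and 93 probes were called, with 3, 2, 1 and 0 of the 6. Of 600 values of single transcripts under an alternative, 282 differed from the values above, many of the others being equal by construction, and of the 282, 264 moved by less than the spread between animals, 17 by more and 1 turned its sign after a call.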
